A study of Mus musculus with 10 samples.

Results

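Round spermatids (RS) are the haploid germ cells that follow the second meiotic division and precede the elongating spermatids (ES). The members here were the cells that the authors had named RS, 7325 of 45250 cells in the scRNA-seq data and 19423 of 343866 cells in the scATAC-seq data, which reads open chromatin with a transposase. Of the scATAC-seq cells, 4835 carried the RS name that the same nucleus had received from its RNA. The study took nuclei of whole testes from wild-type C57BL/6J mice at 11, 17 and 25 days postpartum (dpp), from 8-week-old Cre/+ mice that carry the Cre recombinase under the control of Stra8, a gene of spermatogonia at meiotic entry, and from 8-week-old Nfya-CKO mice, in which this Cre removes part of Nfya in germ cells. Each condition had 1 library per assay, so no difference has a replicate check, and shares of cells are given with exact Clopper-Pearson 95% intervals that cover counting error only.

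Spermatids leave the meiotic program and, over spermiogenesis, build an acrosome over the nucleus, assemble a flagellum and exchange histones for transition proteins and then protamines. They transcribe at a high rate while round, driven by regulators such as CREM and RFX2, and store many mRNAs for translation after transcription has stopped. The sex chromosomes, which are silenced in pachytene, stay largely repressed in RS, with a set of X- and Y-linked genes that is switched on again.

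RS came from 2 libraries. The Cre/+ library held 5639 RS of 11991 cells and the 25 dpp library 1676 of 18039, 10 RS had no library name, and the libraries of 11 dpp, 17 dpp and Nfya-CKO had no RS. By scATAC-seq, 13516 RS were from Cre/+, 5906 from 25 dpp and 1 from the Nfya-CKO library. Nfya RNA, counted over the whole gene, stood at 1.11 UMIs per 10000 in the column that the authors named as Nfya-CKO undifferentiated spermatogonia, 0.456 in control undifferentiated spermatogonia and 0.725 in RS. Since the allele loses only part of the gene, these values do not check the label. Cell barcodes were not unique to a library. Of the Cre/+ RS, 618 (11.0%) had a barcode that also occurred in another scRNA-seq library, 610 of them in that of Nfya-CKO, where 609 of the 610 were named as other somatic cells. Such barcodes were carried by 24.4% of the diplotene spermatocytes, 78.7% of the spermatocytes of middle and late pachytene and 59.8% of the ES in the same library. The RS with such a barcode had a median of 7817 UMIs (molecules counted by their molecular identifiers), against 1844 in the remaining Cre/+ RS. In the 25 dpp library this concerned 5 of 1676 RS, and in the scATAC-seq data 66 of 13516 and 24 of 5906. The share of RS in the Cre/+ library was 47.0% (interval 46.1 to 47.9), and it was 61.5% when every cell with such a barcode was left out. At 25 dpp it was 9.29% (8.87 to 9.72), and 9.81% without those cells.

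RS were among the shallower cells. Their median was 2050 UMIs (quartiles 1315 and 3583) and 1069 genes in Cre/+, and 2379 UMIs (1633 and 3532) and 1230 genes at 25 dpp. Diplotene spermatocytes (D), the last population before the meiotic divisions, had 3128 UMIs in Cre/+ and 4432 at 25 dpp, so RS had 0.655 and 0.537 times their depth. Cells of leptotene to early pachytene were shallower than RS in both libraries, with 1239 and 1644 UMIs, and in Cre/+ those of early leptotene to zygotene were as well, with 1938. The quartiles of RS and D overlapped in both libraries, and without the shared barcodes the Cre/+ ratio was 0.771. RS fell into 2 of the authors' clusters. Cluster 4 held 55.2% of the Cre/+ RS and 33.9% of those at 25 dpp, and cluster 5 the others. In Cre/+ cluster 5 had a median of 1645 UMIs and cluster 4 of 2492, whereas at 25 dpp they had 2310 and 2530. Fewer transcripts per cell and lower capture cannot be told apart here.

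The gene matrix gave 1 pooled RS value per gene, the mean over all 7325 cells of the UMIs per 10000 UMIs of a cell, of which 77.0% were Cre/+ cells and 22.9% were 25 dpp cells. The Cre/+ share was 52.9% in D, 27.9% in mP/lP and 99.6% in ES, and in the scATAC-seq matrix 69.8% in RS, 46.8% in D and 97.6% in ES. A ratio between columns thus also sets different mixes of age and genotype against each other, which cannot be told apart from the cell type. RS held 21474041 UMIs in all. The lowest mean of both columns that was compared was 0.05. If UMIs were pooled over cells, a value of 0.05 would be about 107 UMIs in RS, 99.4 in D and 19.3 in ES. As the values are means over cells, these counts are only a rough guide. Below, RS are set against 9 other control columns: undifferentiated and differentiating spermatogonia, preleptotene (pL), early leptotene to zygotene (eL/L/Z), leptotene to early pachytene (L/Z/eP), middle and late pachytene (mP/lP), D, ES and Sertoli cells. Ratios were taken after adding 0.1 to both values, which understates the change of weak genes, and a gene was counted when it was at least 2-fold apart.

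Both genes that mark the population were checked first. Acrv1 (chr9:36693220-36698845, GRCm38), which encodes a protein of the acrosomal vesicle, stood at 7.19 UMIs per 10000 in RS. Its other values were 2.56 in ES, 2.04 in D, 1.18 in differentiating spermatogonia, 0.580 in mP/lP, 0.385 in L/Z/eP, 0.157 in undifferentiated spermatogonia, 0.137 in eL/L/Z, 0.00868 in pL and 0.00210 in Sertoli cells. RS were thus 2.74-fold above the next column. Tcp11 (chr17:28066747-28080726), a gene of sperm function, stood at 10.8 in RS but at 17.5 in ES, with 7.14 in D, 5.88 in mP/lP, 3.21 in L/Z/eP, 3.08 in differentiating spermatogonia and at most 0.866 in the other columns. Acrv1 therefore peaked in RS, while Tcp11 did not and was highest in ES.

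Spermatid transcripts were also present in cells that should lack them. For the 927 genes at least 2-fold higher in RS than in each other control column, the value in differentiating spermatogonia, of which 84.5% were Cre/+ cells, was a median of 14.3% of that in RS (quartiles 11.2 and 18.4). It was 0.762% in pL, of which 0.341% were Cre/+ cells, and 0.476% in Sertoli cells, of which 0.0613% were. In undifferentiated spermatogonia (7.89% Cre/+ cells) it was 2.78% and in eL/L/Z (1.30%) 3.52%, but L/Z/eP, with 2.62% Cre/+ and 93.5% 25 dpp cells, had quartiles of 7.36% and 14.0%. It stood at 7.56% in the other somatic cells, 8.72% in mP/lP, 28.7% in D (quartiles 25.5 and 32.6) and 25.2% in ES. The part of free RNA in these values was not tested. The markers of somatic cells and of spermatogonia were low in RS. Those of ES were not: the 8 ES markers summed to 43.7 in RS, 16.5 in D and 147 in ES. The 8 Sertoli markers summed to 4.70 in RS (6.20 in D, 102 in Sertoli cells), of which Clu gave 2.90 and Amh, a defining marker, 0.00641. The 5 Leydig markers summed to 0.786, the 8 markers of peritubular, endothelial and macrophage cells to 0.736, and the 8 spermatogonial markers to 2.31, against 34.1 in undifferentiated spermatogonia.

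Promoter sequences of 7 genes are given because these genes of the role lists below had their highest RNA in RS and were also at least 1.5-fold more accessible there than in D. They were chosen after the values and the motifs were seen, 6 to show each kind of match and Catsper4 to show a promoter with none. The sequences are the 250 bases before the transcript start from RefSeq (GRCm38.p6), written 5′ to 3′ on the strand of the gene. Capitals mark any match, on either strand, to TGACGTCA, the palindromic cAMP response element bound by CREM and its relatives, to its shorter core TGACG, to GTTGCC, a core of the X-box bound by RFX factors, to ACAATGG, a site of SOX factors, or to CCAAT, the box bound by NF-Y. TGACGTCA always contains TGACG on both strands. Acrv1 is from chr9:36692970-36693219 (plus strand), Pdilt from chr7:119523483-119523732 (minus), Sox5 from chr6:143947107-143947356 (minus), Izumo1 from chr7:45621561-45621810 (plus), Chd5 from chr4:152338401-152338650 (plus), Spaca6 from chr17:17830725-17830974 (plus) and Catsper4 from chr4:134227384-134227633 (minus).
Acrv1: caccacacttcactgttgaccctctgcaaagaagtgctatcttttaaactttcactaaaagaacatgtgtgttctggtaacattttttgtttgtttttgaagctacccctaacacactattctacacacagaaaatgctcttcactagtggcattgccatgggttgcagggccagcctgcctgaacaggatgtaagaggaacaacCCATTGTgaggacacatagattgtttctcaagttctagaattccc
Pdilt: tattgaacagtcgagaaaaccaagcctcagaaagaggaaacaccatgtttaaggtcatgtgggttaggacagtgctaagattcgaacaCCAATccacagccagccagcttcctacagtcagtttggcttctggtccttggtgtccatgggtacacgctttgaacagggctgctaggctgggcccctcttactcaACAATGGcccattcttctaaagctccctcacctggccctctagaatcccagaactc
Sox5: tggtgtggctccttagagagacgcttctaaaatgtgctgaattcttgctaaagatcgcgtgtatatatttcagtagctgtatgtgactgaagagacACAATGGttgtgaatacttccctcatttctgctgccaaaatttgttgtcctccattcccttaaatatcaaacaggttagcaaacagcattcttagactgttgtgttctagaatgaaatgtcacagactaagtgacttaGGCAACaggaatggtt
Izumo1: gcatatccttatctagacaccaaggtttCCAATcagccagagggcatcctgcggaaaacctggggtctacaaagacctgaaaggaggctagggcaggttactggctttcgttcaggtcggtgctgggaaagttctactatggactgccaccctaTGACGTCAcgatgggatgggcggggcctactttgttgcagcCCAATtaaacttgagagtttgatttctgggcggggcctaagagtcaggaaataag
Chd5: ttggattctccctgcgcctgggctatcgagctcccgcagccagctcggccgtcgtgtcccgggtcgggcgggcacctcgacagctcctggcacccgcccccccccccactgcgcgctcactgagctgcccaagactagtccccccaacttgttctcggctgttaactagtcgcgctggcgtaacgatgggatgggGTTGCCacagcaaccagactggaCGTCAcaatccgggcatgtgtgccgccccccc
Spaca6: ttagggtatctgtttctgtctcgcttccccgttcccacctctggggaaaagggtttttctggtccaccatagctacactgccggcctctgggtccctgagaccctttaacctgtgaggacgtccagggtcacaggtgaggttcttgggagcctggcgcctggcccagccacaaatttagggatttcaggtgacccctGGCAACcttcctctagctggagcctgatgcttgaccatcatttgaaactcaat
Catsper4: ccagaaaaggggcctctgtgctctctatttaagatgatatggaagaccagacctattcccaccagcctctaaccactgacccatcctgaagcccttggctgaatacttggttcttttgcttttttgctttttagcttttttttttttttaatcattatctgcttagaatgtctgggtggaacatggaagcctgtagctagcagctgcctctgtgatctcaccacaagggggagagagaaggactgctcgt

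The windows of Sox5, Pdilt and Spaca6 lie inside the span of their gene, before an internal transcript start, and those of Chd5 and Catsper4 overlap its first bases. In these windows the ACAATGG match of Acrv1 began 45 bases before the start, that of Pdilt 56 and that of Sox5 154. The TGACGTCA match of Izumo1 began 96 bases before it and the GTTGCC matches of Chd5 and Spaca6 55 and 53. RefSeq promoters of this kind were found for 645 of the 927 genes, 809 windows in all. ACAATGG was in 7.66% of the 809, against 2.41% of the 13031 windows of all genes with a value of at least 0.2 in some control column and 3.02% of all 32851 windows. Among the 427 windows of RS genes whose accessibility was also at least 1.5-fold over that of D it was in 10.5%, and among the 443 windows of genes at least 2-fold lower in RS than in D in 1.58%. GTTGCC was in 15.1% of the 809 windows, against 11.5% of the 13031 and 10.4% of the 32851. TGACGTCA was in 2.84%, against 2.54% and 1.55%, TGACG in 16.3%, against 25.2% and 17.8%, and CCAAT in 32.5%, against 35.4% and 33.8%. In the 427 and the 443 windows, GTTGCC was in 17.1% and 10.2%, TGACGTCA in 3.28% and 1.13%, TGACG in 15.2% and 24.8%, and CCAAT in 30.4% and 33.0%. A match is a string of letters, not a bound site, and no test was made of these shares.

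More genes had their highest RNA in RS than in any other control column. Of 13689 genes with a value of at least 0.2 in some column, 2653 (19.4%) were highest in RS, followed by 2270 in Sertoli cells and 2015 in pL. Of these, 927 (6.77% of the 13689) were at least 2-fold over each other column, against 699 for Sertoli cells, 235 for undifferentiated spermatogonia, 177 for ES, 16 for mP/lP and 9 for D. The second highest column was D for 593 of the 927 and ES for 302. By GENCODE biotype, 397 of the 927 (42.8%) were long non-coding RNAs or unverified loci (TEC), against 1192 of the 13689 (8.71%). Protein-coding genes were 501 (54.0%), against 88.6% of all genes compared. The RS column rested on 7325 cells, more than each other control column except L/Z/eP (8107), and the part of depth in these counts was not tested.

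**Figure D1:**
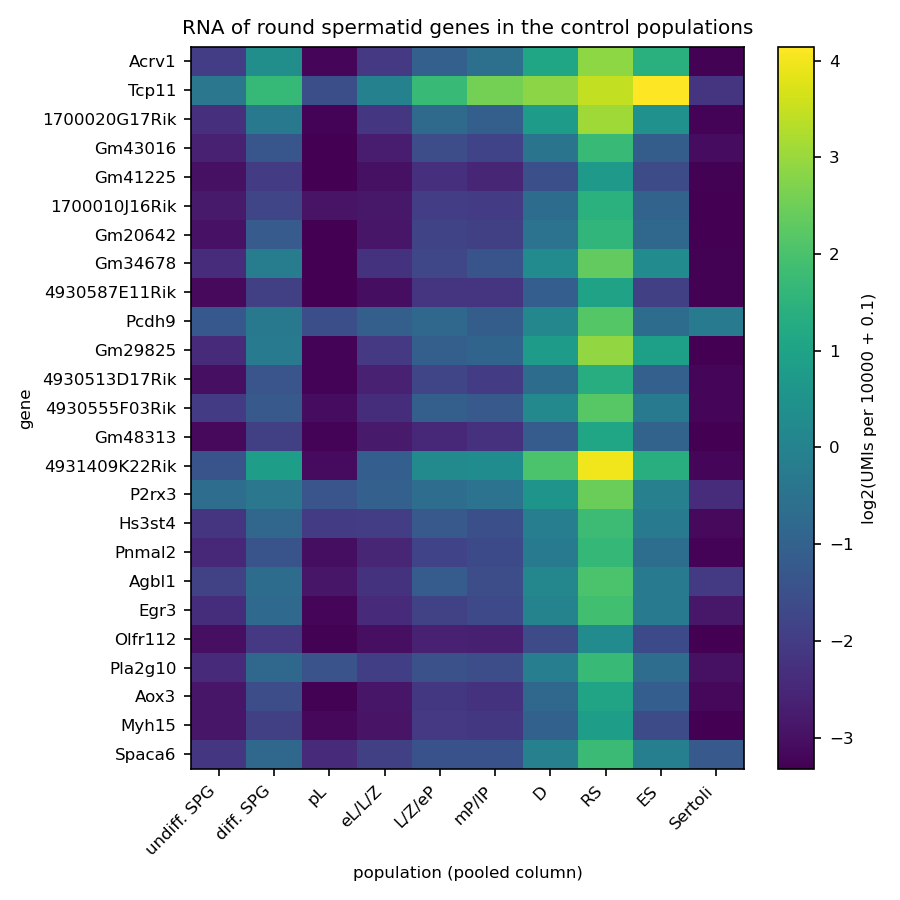
Heat map of the RNA, as log2 of UMIs per 10000 plus 0.1, of Acrv1, Tcp11 and the genes that led RS by the largest ratio (12 of all genes, then 12 protein-coding), with 1 row per gene and 1 column per pooled control population. Each gene except Tcp11, which is highest in ES, is brightest in the RS column, and D and ES are next for most.

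The leading genes were mostly non-coding. The largest ratio to the next column was that of 1700020G17Rik (chr10:110801174-110896507), an RNA antisense to E2f7, with 8.37 UMIs per 10000 UMIs in RS, 1.61 in D and 1.27 in ES, a 4.96-fold lead. The strand setting of the counting is not given in the sources used here, so its reads and those of E2f7 cannot be told apart. Gm43016 followed with 3.25 in RS, 0.629 in D and 0.358 in ES (4.60-fold). Gm41225, 1700010J16Rik, Gm20642, Gm34678, 4930587E11Rik, Gm29825, 4930513D17Rik, 4930555F03Rik and Gm48313, all annotated as non-coding, led by 3.97- to 4.51-fold, with RS values of up to 7.57, in Gm29825. Gm20642, Gm34678 and 4930587E11Rik are antisense to Nrg3, Utp23 and Cntn3. The only protein-coding gene among the 12 was Pcdh9 (chr14:93013700-93892834), a protocadherin, with 4.45 in RS, 0.996 in D, 0.738 in Sertoli cells and 0.523 in ES.

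Ranked after the values were seen, the protein-coding genes that followed Pcdh9 were 4931409K22Rik (15.8 in RS, 3.96 in D), P2rx3, an ATP-gated ion channel (5.44 and 1.35), Hs3st4, a heparan sulfate sulfotransferase (3.35 and 0.808), Pnmal2 (3.02 and 0.726) and Agbl1, a tubulin deglutamylase (3.96 and 0.997). Egr3, an immediate early transcription factor, stood at 3.61 against 0.905, and the phospholipase gene Pla2g10 at 3.21 against 0.817. Their leads over the next column ran from 3.61- to 3.91-fold.

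Against D, 1765 of 14994 genes (11.8%) were at least 2-fold higher in RS and 511 (3.41%) at least 2-fold lower, and the median log2 ratio of all genes compared was −0.16. Lists of genes by role are given beside these shares. With 0.5 added in place of 0.1 the counts were 497 and 129, and with 0.01 they were 3089 and 1494. Centred on the median of all genes, 263 genes were lower, and the share of higher among all genes past 2-fold was 90.0% in place of 77.5%. The highest ratios among genes of at least 1 UMI per 10000 were those of 1700020G17Rik (log2 ratio 2.31), Gm43016 (2.20), Gm48313 (2.20), Gm41225 (2.17) and Gm29825 (2.17). The lowest were at the Ugt1a locus, where 5 genes for glucuronosyltransferases that share their last exons (Ugt1a7c, Ugt1a6b, Ugt1a9, Ugt1a8 and Ugt1a6a) stood at 2.10 to 2.14 in D and at 0.00909 to 0.0112 in RS. As these genes overlap, they are 1 uncertain signal, which also stood at 2.31 to 2.35 in the other somatic cells. Beyond that locus, Ifitm7 stood at 1.36 in D and 0.263 in RS, Gm14244 at 9.39 and 2.44, and Lrrc71, a leucine-rich repeat gene, at 5.53 and 1.53.

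Against ES, 1726 of 15316 genes (11.3%) were at least 2-fold higher in RS and 1538 (10%) at least 2-fold lower, with a median log2 ratio of −0.09. The counts of list members against ES below are to be read beside these shares. Sertoli markers were high in the ES column: all 7 compared were at least 2-fold higher in ES than in RS, and the 8 summed to 44.8 in ES and 4.70 in RS. Of 4 Leydig markers compared, 3 (Insl3, Cyp17a1 and Star) were also at least 2-fold higher in ES. Of 5 markers of peritubular, endothelial and macrophage cells compared, 1 was, and their median log2 ratio of RS to ES was 0.28. The 5 genes furthest below ES were Clu, Gstm7, Gstm1, Cpe and Gstm6, all of which Sertoli cells or the other somatic cells held at higher values than RS. Clu stood at 2.90 in RS and 31.3 in ES, with 34.1 in Sertoli cells. Leaving out genes at least 2-fold higher in Sertoli or other somatic cells than in RS, 232 genes were lower in RS in place of 1538, and the share of higher among all genes past 2-fold was 88.1% in place of 52.9%. This setting uses the RS value itself, so by its construction it removes genes that are low in RS. Of the Cre/+ ES, 59.8% also had a barcode of another library. The part of these cells in the comparison was not tested. The 5 genes furthest above ES were the non-coding 4930586N03Rik, 4930587E11Rik, Gm43016 and Gm40293, and Pcdh9, with log2 ratios from 2.84 to 2.97. Among protein-coding genes, Gpat3, an enzyme of glycerolipid synthesis, stood at 6.50 in RS and 0.982 in ES, and the chloride channel gene Cftr at 5.75 and 0.933.

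**Figure D2:**
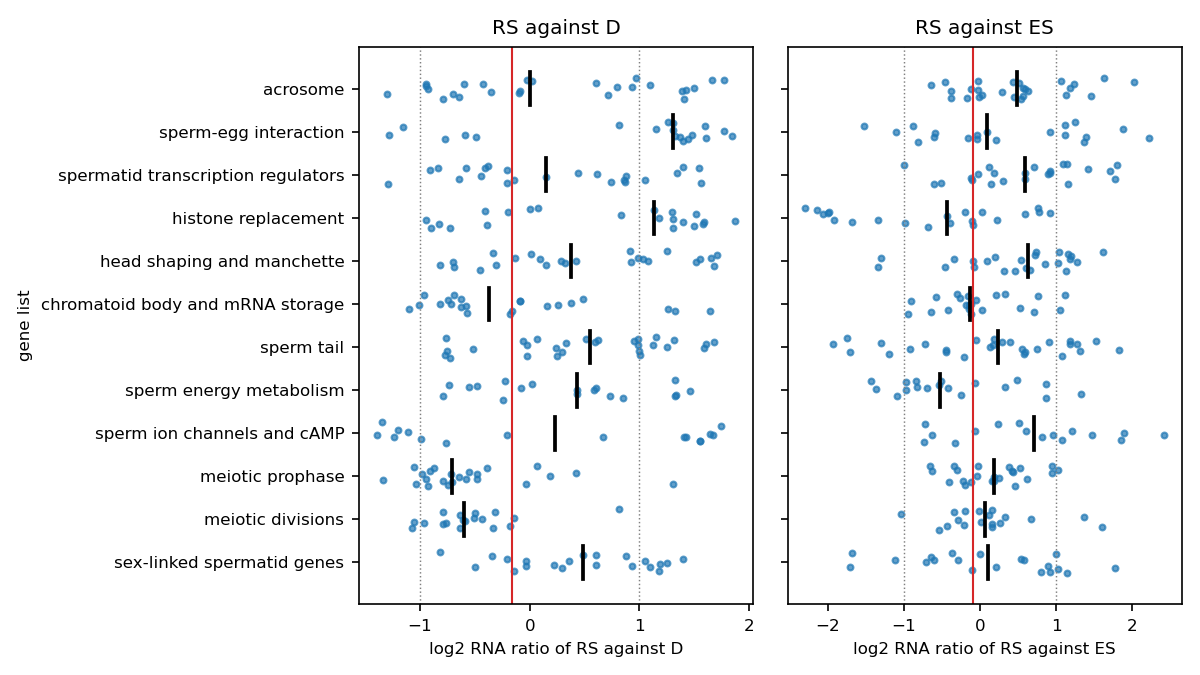
Log2 RNA ratio of RS to D (left) and to ES (right), with 1 point per gene of 12 lists. The black bar is the median of the list, the red line the median of all genes compared (−0.16 and −0.09) and the dotted lines mark 2-fold. Sperm-egg and histone replacement genes have medians past 2-fold against D, and the medians of the meiotic lists lie left of the red line there.

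Acrosome genes split. Of 26 members, 12 were highest in RS, beside 19.4% of all genes, and 7 were at least 2-fold higher than in D, beside 11.8%. A further 1 was lower, near the 3.41% of all genes, and the median log2 ratio was 0.00. After Acrv1, the highest were Pcsk4, a proprotein convertase, at 5.71 (D 2.88, ES 4.16), and Spata16, a gene of acrosome assembly, at 3.19. Spata16 was the member that was lower, from 7.99 in D. Spaca3, an acrosomal lysozyme-like protein, stood at 3.16 in RS, 0.932 in D and 0.701 in ES. Spaca1, Spaca7, Fam209, Eqtn and the X-linked Cylc1 were the further members at least 2-fold over D (log2 ratios of at least 1.09). Acr, the protease acrosin, stood at 2.85 in RS and 1.84 in D. Against ES, 7 members were at least 2-fold higher and none was lower, beside 11.3% and 10% of all genes. Cylc1 (0.750 in RS, 1.23 in ES) stood furthest below ES.

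Genes of sperm-egg interaction had a median log2 ratio to D of 1.31, with members on both sides of 0. Of 20 members, 19 passed the filter, and 13 of these were at least 2-fold higher in RS than in D and 2 lower. The shares of all genes were 11.8% and 3.41%. Spaca6, needed for fusion with the egg, stood at 3.29 in RS, 0.846 in D and 0.825 in ES (log2 ratio to D 1.84). Izumo1, the sperm ligand of the egg receptor JUNO, stood at 2.72 in RS, 0.725 in D and 0.504 in ES. Pdilt, a testis chaperone, stood at 2.26 and 0.681, Tmem190 at 2.21 and 0.752, and Izumo2 at 2.08 and 0.615. The 2 lower members were both ADAM genes of the sperm surface: Adam2 had 2.16 in RS and 5.39 in D, and Adam3 2.26 and 5.16. The highest member of the list, the chaperone Clgn, stood at 4.22 in RS and 5.96 in D. Against ES, 7 members were at least 2-fold higher and 2, Adam3 and Ace, lower. Of all genes, 11.3% were higher than in ES and 10% lower, so the share of lower members was near that of all genes.

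Regulators of spermatid transcription were mixed. Of 23 members, 10 were highest in RS, beside 19.4% of all genes. Against D, 5 were at least 2-fold higher and 1 lower (median log2 ratio 0.14), beside 11.8% and 3.41% of all genes. The highest was Nr6a1, the germ cell nuclear factor, at 5.35 in RS, 4.83 in D and 2.35 in ES. Crem, the activator of many spermatid genes, stood at 3.80 in RS, 2.05 in D and 1.73 in ES. Rfx4 stood at 3.02, 2.21 and 0.800, and Rfx2 at 2.09, 2.75 and 3.01. Fhl5, a coactivator of CREM, had the highest ratio to D (0.484 in D and 1.62 in RS, log2 ratio 1.56), followed by Creb3l4 (0.348 and 1.20), Sox5 (1.03 and 2.87), Spz1 (0.531 and 1.49) and Hsfy2 (0.184 and 0.489). Zfp541, a meiotic regulator, had the lowest ratio, with 2.62 in D and 1.01 in RS. Of the SOX genes on the list, Sox30 stood at 0.946 in RS, 0.582 in D and 0.822 in ES.

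Genes of histone replacement were split, with the transition protein and protamine genes at least 2-fold higher in RS than in D. Of the 21 that passed the filter, 11 were at least 2-fold higher than in D and none lower, beside 11.8% and 3.41% of all genes. In all, 14 were above D (median log2 ratio 1.13). Against ES, 8 were at least 2-fold lower and none higher (median −0.44), beside 10% and 11.3% of all genes. The transition protein gene Tnp2 stood at 4.16 in D, 11.1 in RS and 49.3 in ES, Prm1 at 4.11, 10.3 and 40.8, Tnp1 at 1.71, 4.37 and 18.5, and Prm2 at 1.47, 3.79 and 9.74. Chd5, a chromatin remodeler of the histone exchange, was different: it had the highest ratio to D (log2 ratio 1.87), with 1.31 in D, 5.07 in RS and 2.96 in ES. Cdyl, a reader of histone methylation, also peaked in RS, at 2.56 (D 0.790, ES 1.46). Tssk6, a kinase needed for the exchange, stood furthest below ES, at 0.956 in RS and 5.08 in ES. The ubiquitin ligase gene Rnf8 had the lowest ratio to D, with 0.809 in D and 0.373 in RS. The histone genes Hist1h1t, Hist1h2ba and H2afb1 were under the filter, at most 0.0194 in RS.

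Genes of the head and manchette, the microtubule skirt that shapes the nucleus, had 25 members. Of the 23 with a value of at least 0.2 in some column, 11 were highest in RS, beside 19.4% of all genes. Of 24 compared with D, 8 were at least 2-fold higher and none lower (median log2 ratio 0.37), beside 11.8% and 3.41% of all genes. Spag16, which is also an axonemal gene, was the highest at 9.01 (D 11.1, ES 2.88). Hook1, a linker of the manchette, stood at 5.47 in RS and 2.86 in D, and Spata6, of the head-tail joint, at 5.24 and 2.14. Sun5, which anchors the tail to the nucleus, had the highest ratio, with 1.19 in D, 4.10 in RS and 1.97 in ES. Spag4 stood at 5.18 and 1.55, the lamin gene Lmnb2 at 1.59 and 0.437, and Spag6l had the lowest ratio (3.24 in D and 1.79 in RS). Against ES, 8 members were at least 2-fold higher and 2, Spem1 and Rimbp3, lower, beside 11.3% and 10% of all genes. The share of lower members was thus near that of all genes.

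Genes of the chromatoid body, the RNA granule of RS, and of mRNA storage had 22 members compared. Of these, 3 (13.6%) were at least 2-fold higher in RS than in D, near the 11.8% of all genes. A further 2 were lower, beside 3.41% of all genes, and the median log2 ratio was −0.37. The RNA-binding proteins Ybx2 (15.7 in RS, 24.2 in D, 29.5 in ES) and Ybx3 (8.58, 14.2 and 12.9) were the highest, followed by the translation factor Eif4g3 (6.76, 6.04 and 4.66). Tsks had the highest ratio to D (1.97 in D and 6.37 in RS), and its partner kinases Tssk1 and Tssk2 were the other members at least 2-fold higher (0.595 and 0.475 in RS). The lower members were the PIWI gene Piwil1 (5.60 in D and 2.56 in RS) and Tdrd5, a Tudor protein of germ granules (1.42 and 0.657). The helicase Ddx4 stood at 4.51 in RS and 4.80 in D.

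Genes of the sperm tail had 11 of 28 members highest in RS, beside 19.4% of all genes. Against D, 8 were at least 2-fold higher and none lower (median log2 ratio 0.55), beside 11.8% and 3.41% of all genes. Odf2, of the outer dense fibres, was the highest at 8.70 in RS (D 7.06, ES 16.5). Smcp, of the mitochondrial sheath, stood at 6.36 in RS, 2.05 in D and 10.6 in ES, and Odf1 at 4.71, 2.10 and 16.0. Cabyr, of the fibrous sheath, had the highest ratio to D, with 0.755 in D, 2.63 in RS and 0.851 in ES. Hydin, of the central pair, stood at 4.58 in RS and 1.22 in ES, Cfap43 at 5.90 and 2.74. The dynein gene Dnah8 had the lowest ratio to D, with 8.73 in D and 5.07 in RS (log2 ratio −0.77). Against ES, 7 members were at least 2-fold higher and 5 lower, beside 11.3% and 10% of all genes. The furthest below ES was Oaz3 (2.81 in RS, 11.0 in ES).

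The list of sperm energy metabolism also holds the marker Tcp11. Of its 18 genes, 4 were at least 2-fold higher in RS than in D and none lower (median log2 ratio 0.43). The shares of all genes were 11.8% and 3.41%. Against ES, 1 was at least 2-fold higher and 3 lower (median −0.52), beside 11.3% and 10% of all genes. Cox6b2, a testis subunit of cytochrome oxidase, was the highest at 14.6 in RS (D 5.73, ES 7.94). Of the glycolytic genes, Gapdhs stood at 1.55 in D, 4.44 in RS and 8.00 in ES, Hk1 at 1.18, 3.12 and 6.21, and Pgk2 at 1.15, 1.98 and 5.51. Ldhc, the testis lactate dehydrogenase, stood at 7.07 in RS, 8.41 in D and 10.1 in ES. Slc25a31, a nucleotide carrier, had the lowest ratio to D, with 0.602 in D and 0.305 in RS (log2 ratio −0.79).

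The subunits of the sperm calcium channel CatSper stood on both sides of D. Of 16 genes of ion channels and cAMP signalling that passed the filter, 7 were at least 2-fold higher in RS than in D and 5 lower. The shares of all genes were 11.8% and 3.41%. The pore-forming subunits Catsper1 (0.316 in D, 1.29 in RS, 0.275 in ES), Catsper3 (0.407, 1.38 and 0.434) and Catsper4 (1.08, 3.66 and 0.605) were higher, as was the accessory gene Efcab9 (0.343, 1.09 and 0.416). The pore gene Catsper2 (5.28 in D, 2.39 in RS) and the auxiliary subunits Catsperd (4.94 and 1.88) and Catsperg1 (7.45 and 3.19) were lower. Catsperg2 (5.02 and 2.47) stood just short of 2-fold. The potassium channel Kcnu1 stood at 3.61 in RS and 1.17 in D, the sodium pump Atp1a4 at 1.73 and 0.486, and the exchanger Slc9c1 had the lowest ratio (1.87 in D and 0.650 in RS). The highest was Adcy10, the soluble adenylyl cyclase, at 3.98 (D 2.46). Against ES, 6 members were at least 2-fold higher, Catsper4 by a log2 ratio of 2.42, and none lower. Of all genes, 11.3% were higher than in ES and 10% lower.

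Most meiotic genes were at lower values in RS than in D, though few passed 2-fold. Of 23 genes of meiotic prophase, 3 were at least 2-fold lower and 1 higher (median log2 ratio −0.70, against −0.16 for all genes). The shares of all genes were 3.41% lower and 11.8% higher. The synaptonemal complex gene Sycp2 stood at 14.8 in D and 5.79 in RS, and Hormad1 and Mlh3 were the other members lower. Sycp1 was the highest, at 8.80 in RS and 13.0 in D. The cohesin gene Rec8 was the member higher in RS, 1.11 against 0.390 in D, and RS was its highest control column. Of 18 genes of the meiotic divisions, none was at least 2-fold higher and 2, Cks2 and Incenp, were lower (median −0.60). These counts stand beside the same 11.8% and 3.41% of all genes. The 8 markers of pachytene and diplotene summed to 20.5 in mP/lP, 12.6 in D, 6.47 in RS and 6.36 in ES.

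X- and Y-linked genes gave 1.16% and 0.0466% of the RNA in RS (898 and 76 genes placed by RefSeq). The X-linked share was 0.531% in mP/lP, 0.983% in D and 1.67% in ES, against 2.19% in undifferentiated spermatogonia, so RS stood above mP/lP and below the spermatogonia. Against mP/lP, 106 of 386 X-linked genes (27.5%) were at least 2-fold higher in RS and 1 lower, beside 22.0% of all genes higher and 9.81% lower. The median log2 ratio of X-linked genes to mP/lP was 0.48, and that of autosomal genes −0.14. Against D, 35 of 431 (8.12%) were higher and none lower, beside 11.6% and 3.24% of autosomal genes, and 41 of 438 (9.36%) had their highest value in RS, against 19.0% of autosomal genes. The Y-linked share was 0.0466% in RS, with eL/L/Z (0.0447%) and L/Z/eP (0.0449%) close to it. It was 0.0158% in mP/lP, 0.0310% in D and 0.0219% in ES. With the 221 Y-linked genes of GENCODE it was 0.0782% in RS, 0.0676% in eL/L/Z and 0.0602% in L/Z/eP. In mP/lP, D and ES it was then 0.0235%, 0.0485% and 0.0457%.

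**Figure D3:**
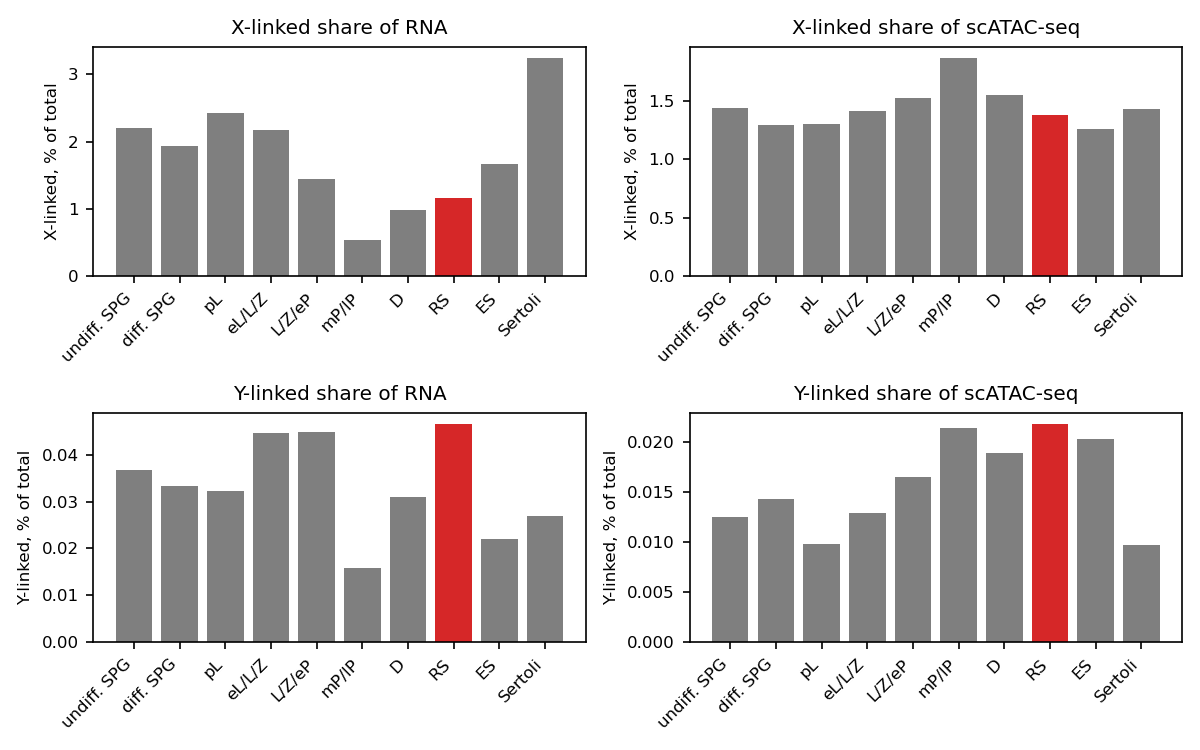
Percent of the summed RNA (left) and of the summed nuclear scATAC-seq signal (right) from X-linked (top) and Y-linked genes (bottom) in each of 10 control populations, with RS in red; each bar is 1 pooled column, without an error. The X-linked share of RNA is lowest in mP/lP (0.531%) and 1.16% in RS.

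Of the genes placed by RefSeq, the highest X-linked gene of RS was Akap4, of the fibrous sheath, at 2.47 (D 0.981, ES 8.29). GENCODE also places Gm595, at 2.67 in RS, on the X. Akap4 was followed by Cstf2, a cleavage factor of mRNA 3′ ends, at 1.79 (D 0.540, ES 0.776), Thoc2 at 1.66 (D 2.02), 1700080O16Rik at 1.47 (D 0.497) and the ubiquitin ligase gene Huwe1 at 1.26 (D 1.77). Akap4, Cstf2 and 1700080O16Rik were thus above D, and the broadly expressed Thoc2 and Huwe1 were not. The highest Y-linked gene was the zinc finger gene Zfy2, at 1.01 in RS, 0.507 in D and 0.227 in ES, and RS was its highest column. Eif2s3y stood at 0.564, Usp9y at 0.434, Ddx3y at 0.263 and Zfy1 at 0.260. Of 21 genes of the sex-linked spermatid list that passed the filter, 6 were at least 2-fold higher than in D and none lower. Of all genes, 11.8% were higher and 3.41% lower. Among the 6 were the nuclear genes Cypt1 (0.558 against 0.151) and Cypt3 (0.438 against 0.136). Hsfy2 and H2al2a were also among the 6, but the annotation places them on chromosomes 1 and 2. The multicopy genes Sly (0.0874), Slx (0.0155) and Ssty2 (0.00204) were near 0. The authors kept uniquely mapped reads, so genes with near-identical copies are uncertain.

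The nucleosome ratio had its highest median in RS. The nucleosome ratio, which sets the fragments longer than the DNA of 1 nucleosome against the shorter ones, had a median of 0.702 (quartiles 0.555 and 0.791) in Cre/+ RS named by scATAC-seq and of 0.819 (0.727 and 0.907) at 25 dpp. Each of the 5 other populations with at least 20 cells was between 0.410 and 0.478 in Cre/+ and between 0.532 and 0.567 at 25 dpp. Since these names rest on the same assay, the RNA names were used as well. With them RS had a median of 0.643 in Cre/+ and 0.752 at 25 dpp, and D, the nearest in Cre/+, 0.567, and mP/lP, the nearest at 25 dpp, 0.649. RS were the highest of 8 populations in both libraries, and their quartiles overlapped those of D. Among cells with at least 3000 fragments the RS median was 0.682 (quartiles 0.521 and 0.776) in Cre/+, against 0.610 (0.451 and 0.790) in D, and 0.753 at 25 dpp, against 0.653 in mP/lP. By scATAC-seq name mP/lP then stood at 0.645 at 25 dpp, against 0.828 in RS.

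**Figure D4:**
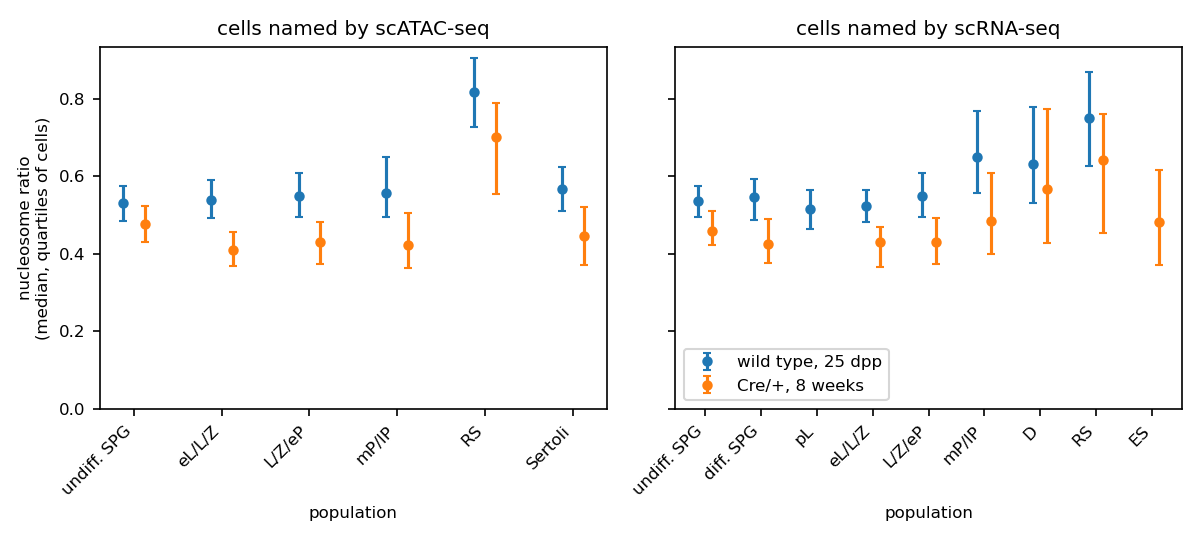
Nucleosome ratio of the scATAC-seq cells of each population in the 25 dpp and Cre/+ libraries, for populations with at least 20 cells, named by scATAC-seq (left) or by scRNA-seq (right). Points are medians and bars the quartiles of cells, which are not replicates. RS have the highest median in each library under both sets of names.

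Enrichment of coverage at transcription start sites (TSS) was lowest in RS. By RNA name the median was 7.38 in Cre/+ RS, below ES (8.19) and D (9.08), and 9.75 at 25 dpp, below differentiating spermatogonia (11.8) and D (11.9). The percent of reads in promoters was 11.7 and 16.1, the lowest of 8 populations in both libraries, though ES stood at 11.8 in Cre/+. By scATAC-seq name it was 15.4 at 25 dpp, the lowest of 6, and 11.6 in Cre/+, where mP/lP stood lower at 11.3. RS were not the cells with fewest fragments: their medians were 12665 in Cre/+, where L/Z/eP had 5619, and 5879 at 25 dpp. Of the 4835 cells named RS by RNA, 3158 (65.3%, 64.0 to 66.7) were also named RS by scATAC-seq, 1080 mP/lP, 352 L/Z/eP and 191 eL/L/Z. The 3158 had a median nucleosome ratio of 0.750, the 1080 of 0.458 and a median of 3768 fragments. Of the 4086 scATAC-seq RS that carried an RNA name, 602 were D, with a median nucleosome ratio of 0.751. A further 175 were mP/lP, with 0.756, so the ratio was as high in these cells as in the 3158. The scATAC-seq names held no D or ES population.

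Accessibility per gene came from a pooled matrix of the RNA-named populations, given here per 1000000 units of the nuclear signal. The study defines promoter accessibility from coverage close to the start site in its pooled tracks, and whether the gene matrix was made in that way is not given in the sources used here. Mitochondrial genes took 40.2% of the RS signal and 48.6% of that of D and were left out. With them in the total, the median log2 ratio of all genes to D went from 0.02 to 0.20. Against D, 2684 of 24035 genes (11.2%) were at least 1.5-fold higher in RS and 403 (1.68%) at least 1.5-fold lower, and with the mitochondrial genes in the total 18 were lower, with a share of higher among those past 1.5-fold of 99.3% in place of 86.9%. Against ES, 5777 of 24041 (24.0%) were higher and 4309 (17.9%) lower, but the ES column rested on 124 cells, against 4835 for RS and 3029 for D, so ES values of single genes are given as a description and calls are made against D. Against mP/lP, 4116 of 23452 (17.6%) were higher and 716 (3.05%) lower.

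Most genes that led in RNA were also more open in RS than in D. Of the 927, 862 could be compared, and 518 of these (60.1%) were at least 1.5-fold more accessible in RS than in D and 3 less, beside 11.2% and 1.68% of all genes. Over all 927, the median scaled level was 25.8 in RS, 14.4 in D, 9.62 in mP/lP, 4.29 in pL and 14.0 in ES. Of 499 compared genes at least 2-fold lower in RNA than in D, 7 were at least 1.5-fold less accessible and 3 more. For all genes the shares were 1.68% and 11.2%. The median over all 511 genes lower in RNA was 55.2 in RS and 61.2 in D. Across the 14356 genes compared in both assays, the log2 ratios to D had a Pearson correlation of 0.546 and a Spearman correlation of 0.446. These points are genes of the same nuclei and are not independent replicates.

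**Figure D5:**
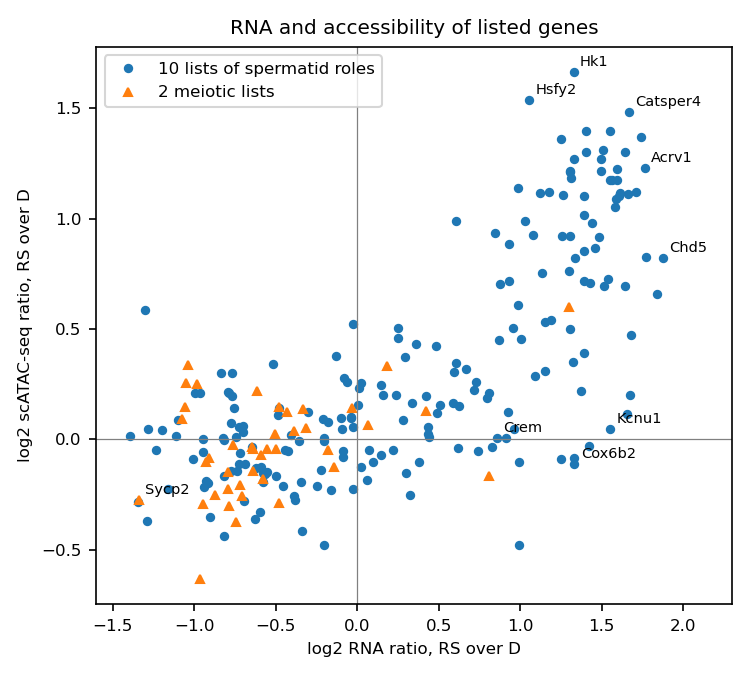
Log2 ratio of RS to D in scATAC-seq (vertical axis) against that in RNA (horizontal axis) for 247 genes of the lists, 206 of spermatid roles (circles) and 41 of the 2 meiotic lists (triangles). Most genes at the right lie above 0, while those at the left lie around 0; Cox6b2 and Kcnu1 are past 2-fold in RNA alone.

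The scaled level of Acrv1 was 54.4 in RS, 30.7 in ES, 22.6 in D, 10.2 in mP/lP, 6.78 in L/Z/eP and 2.77 in pL. Tcp11 was open in each germ cell population, with 128 in RS, 138 in ES, 114 in D and 61.8 in pL. Among the lists, sperm-egg genes had 10 of 20 members at least 1.5-fold more accessible than in D (median log2 ratio 0.59), and histone replacement genes 11 of 24 (45.8%), beside 11.2% of all genes. In the 8 further lists of spermatid roles and sex-linked genes the share ran from 13.6% in the chromatoid body list (3 of 22) to 29.4% in that of ion channels and cAMP (5 of 17). The sex-linked list had 5 of 20, among them Hsfy2 and H2al2a, which the annotation places on autosomes. The genes whose promoters are shown above were chosen for a higher value in RS, and the values are per gene and not those of the windows shown. Pdilt stood at 23.3 in D and 55.7 in RS, Izumo1 at 24.9 and 44.9, Chd5 at 43.5 and 77.6 and Catsper4 at 26.9 and 76.9. Spaca6 stood at 36.5 and 58.2, and Sox5, at low values, at 5.58 and 10.9. Neither was most open in RS. Spaca6 stood at 112 in Sertoli cells and 72.1 in undifferentiated spermatogonia, and Sox5 at 26.3 and 29.7.

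Hk1, the hexokinase gene with a known spermatogenic transcript, had the largest log2 ratio of the listed genes, 1.66, with 54.0 in RS, 16.4 in D, 12.3 in mP/lP and 15.3 in ES. Tnp1 stood at 22.6 in D and 53.9 in RS, Prm2 at 16.2 and 38.9, Hils1 at 30.4 and 76.9 and Akap4 at 17.0 and 45.3. Among the CatSper genes, Catsper1 (16.6 and 44.5), Catsper3 (14.8 and 34.7) and Catsper4 were more accessible, while Catsper2 (118 and 119), Catsperg1 (119 and 123) and Catsperd (101 and 82.9), whose RNA was lower, were open in both. Accessibility was nearly the same in RS and D for some genes that were higher in RNA. Cox6b2 stood at 93.4 in D and 86.3 in RS, Kcnu1 at 60.1 and 62.0, Efcab9 at 48.8 and 47.8, and Crem at 111 and 111.

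Of the 247 listed genes compared in both assays, 69 were at least 2-fold higher in RNA than in D, and 52 of these were at least 1.5-fold more accessible. Of all 1661 genes that were at least 2-fold higher in RNA than in D and compared in scATAC-seq, 833 (50.2%) were. Of the 18 genes of the meiotic divisions, none was at least 1.5-fold more accessible and 1 less, the cyclin gene Ccnb3 (20.9 in D and 13.2 in RS). Of the 24 genes of meiotic prophase, 1 was more accessible, Rec8 (46.9 and 71.5), and 1 less, the cohesin gene Rad21l (0.639 times its value in D), beside 11.2% and 1.68% of all genes. Sycp2 stood at 142 in D and 117 in RS. The X-linked share of the nuclear signal was 1.38% in RS, 1.55% in D, 1.87% in mP/lP and 1.27% in ES, and the Y-linked share 0.0218%, 0.0189%, 0.0213% and 0.0203%.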

How the data were processed

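Nuclei were profiled for RNA and accessible chromatin at the same time (BD Rhapsody), with 1 library per assay in each of 5 conditions. Per the labels and the study's methods, the authors aligned RNA reads with STAR 2.7.10b and scATAC-seq reads with BWA 0.7.12 to mm10, kept uniquely mapped RNA reads, removed duplicates by UMI and position, and named cells with Seurat 5.2.1 and ArchR 1.0.3. These versions and bedtools 2.27.1 are from the submitters' processing notes. The deposited cell tables give counts of UMIs, genes and fragments, the percent of mitochondrial UMIs, the ratio values for nucleosomes and TSS enrichment, and the fraction of reads in promoters, and 16 further columns were not used. The deposited matrices hold the natural log of 1 plus a mean for 13 populations, pooled over libraries by the authors, and were turned back with exp(value) − 1. The study's methods describe log normalization of each cell to 10000 UMIs and a merging of reads by cell type, but not how these matrix columns were computed. The values of a column sum to 10000, and the mean percent of mitochondrial UMIs over the RS cells equals the sum of the mitochondrial genes of the column.

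Genes were compared in RNA when the mean of both columns was at least 0.05 (pseudocount 0.1) and in scATAC-seq when it was at least 5 per 1000000 of the nuclear signal (pseudocount 1). Values are UMIs and not per gene length, so levels of different genes are not comparable as transcript amounts. With 1 library per condition no test was run and no p-value is given, and genes were called by size alone. Shares of cells have exact Clopper-Pearson intervals. Cells of different depth were not thinned, since only their totals were used. Doublets were removed by the authors, with DoubletFinder in the scRNA-seq and ArchR in the scATAC-seq data, and no caller was run here. The genes named were the markers, the 12 with the largest ratio to the second highest column, the 5 highest and lowest in each comparison, the 3 highest and the extreme members of each of 12 lists of roles, and the 5 highest X- and Y-linked genes. Further members and coding genes were added after the values were seen. The population, its markers and the lists were chosen with earlier results of these data known. Analyses used Python 3.11.15 with numpy 2.4.6, pandas 2.3.3, scipy 1.17.1 and matplotlib 3.10.9, and the counting of calls was tested on simulated data. Settings were varied in 28 planned ways, and 8 ways were added after the data were seen.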

Additional observations from a re-analysis of the deposited data

How the results depend on the processing

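Of 104 values recomputed under other settings, 69 moved by less than their interval or quartiles, or for counts by less than 1.5 times, and 35 moved. A change of direction was scored only for the depth ratio of RS to D, which did not reverse. The share of RS in the Cre/+ scRNA-seq library was 37.9% among cells with at least 1000 genes and 61.5% without barcodes of another library, and at 25 dpp it was 9.81% without them. In scATAC-seq the Cre/+ share was 25.7% with at least 3000 fragments, 8.40% with a TSS enrichment of at least 8 and 47.3% by RNA names, and the 25 dpp share 7.71%, 4.59% and 10.4%. With at least 3000 fragments, 72.1% of the cells named RS by RNA were named RS by both assays. Against D, 497 genes were higher and 129 lower with a pseudocount of 0.5, 3089 and 1494 with 0.01, and 16 and 10 at 4-fold, and 263 were lower after centring on the median. Against ES, the counts were 548 and 428, 2856 and 2789, and 190 and 187, and 232 were lower without genes higher in somatic cells than in RS, a setting that removes genes low in RS by its construction. Among genes of at least 1 UMI per 10000, 1054 were highest in RS and 423 of them 2-fold over each other column. In accessibility, 1575 genes were higher and 89 lower than in D with a pseudocount of 5, 4134 and 762 without a filter, and 18 lower with mitochondrial genes in the total, and 9793 were higher than in ES without a filter. The Y-linked share of RNA was 0.0782% with GENCODE, and the X- and Y-linked shares of accessibility were 0.823% and 0.0130% with mitochondrial genes in the total. The cause of these shifts was not tested beyond what each setting changes by its construction. Of 2022 ratios of 337 single genes, 1850 stayed on their side of 2-fold, 84 no longer passed it and 88 newly passed it. A change of sign past 2-fold could not occur here. Adding another constant keeps the sign of a ratio, and the medians used for centring were smaller than 2-fold. No paired analysis was possible because each condition had 1 library per assay and no test was run. No replicate could be left out for the same reason.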
